A study of Homo sapiens with 17 samples.

Results

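The interferon-stimulated genes described here are 38 genes whose transcripts are known to be induced by interferons. A gene was taken as measured where a probe set on the array carried its symbol and no other in the platform annotation, and the brightest such probe set was used. On this rule 35 of the 38 were measured, among 17958 genes in all. DTX3L, STAT2 and GBP1 had no probe set with a single symbol and were not analysed here. RNA came from 2 human non-small cell lung cancer cell lines, A549 and H2122, which do not make functional LKB1, the tumour suppressor kinase made from the STK11 gene. Stable lines had been made by transduction of each with the retroviral vector pBABE carrying wild-type LKB1 (called LKB1 below), with pBABE carrying the kinase-dead mutant LKB1 K78I, or with empty pBABE, and all groups had been selected for 2 weeks in 1 µg/mL puromycin and kept in 5% serum. There were 3 arrays for each group and 17 in total, since H2122 with empty pBABE had 2. Nothing in the labels says that replicates were separate transductions or cultures, so the p-values reflect the spread among these arrays alone, which may be technical. No interferon treatment is named in the labels.

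Interferons are secreted proteins that bind receptors on the cell surface and act through the kinases JAK1 and TYK2. A transcription factor that holds STAT2 and IRF9 then binds the interferon-stimulated response element, a short DNA motif in the promoters of many antiviral genes. The induced proteins sense or degrade viral RNA, block translation, hold virus particles at the membrane or modify other proteins, and cancer cells can express them without added interferon.

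The labels were checked before the results. In H2122 the STK11 level on the log2 scale was 11.20, 11.35 and 11.26 with LKB1, 11.27, 11.31 and 11.26 with K78I, and 6.33 and 6.22 with empty pBABE. Titles and transduction labels agree on all 17 arrays, but for H2122 LKB1 replicate 3, H2122 K78I replicate 3 and H2122 pBABE replicate 2 the source name gives another construct; the titles were used. In A549 STK11 was at 9.42, 10.23 and 9.62 with LKB1, and 2 control arrays had STK11 levels at odds with their labels. K78I replicate 2 had STK11 at 7.14, against 10.54 and 10.42 on the other K78I arrays, and pBABE replicate 3 had it at 10.52, against 6.88 and 7.38 on the other pBABE arrays. No array was moved, so each A549 comparison with K78I or with pBABE may rest on a mixed control group, which was not tested. The mean level of 22 cell cycle genes was low on 3 control arrays. Relative to the mean of the line it stood at −0.92 on A549 K78I replicate 2, −0.35 on A549 pBABE replicate 1 and −1.38 on H2122 pBABE replicate 2, and the results that rest on these arrays are given with and without them. The mean level of 8 epithelial markers was 8.40 to 9.10 in A549 and 10.87 to 11.13 in H2122, while 10 immune, 6 fibroblast and 4 endothelial markers averaged 3.73 to 4.61 on every array. The epithelial markers were not alike in A549: 4 or 5 of the 8 lay above the median on every array of a group, against 8 in H2122. On control arrays CLDN7, KRT19, EPCAM and CLDN4 differed by −6.07 to −3.92, A549 minus H2122, and KRT8 and KRT18 by 1.15 and 1.21. Among these markers CDH1 (−1.17 ± 0.26) fell and PDGFRA (0.78 ± 0.21) rose with LKB1 in A549 against the mean of both controls, and CSF1R (0.60 ± 0.14) rose and PECAM1 (−0.79 ± 0.18) fell in H2122; their part in the results below was not tested. Each of these calls was lost in at least 1 fit that leaves out 1 array: CDH1 without A549 LKB1 replicate 2 (−0.78), PDGFRA without A549 LKB1 replicate 1 or 3 or pBABE replicate 1 (0.56 to 0.72), CSF1R without H2122 LKB1 replicate 1 or 2 (0.55 to 0.58) and PECAM1 without H2122 LKB1 replicate 3 (−0.66). Array medians lay between 5.62 and 5.73 over all probe sets, and between 6.30 and 6.52 over the 17958 genes. Over the genes they were 6.46 to 6.52 on the A549 LKB1 arrays and 6.36 to 6.47 on the A549 controls. In H2122 they were 6.36 to 6.49 with LKB1 and 6.30 to 6.45 on the controls.

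The promoter windows of 6 called members that hold the motif of this element, those with the lowest adjusted p, are shown with that of DTX3L, the neighbour of PARP9, to place the motif in each. Since holding it was part of the choice, its presence in these 6 is no result. Each is 300 bases from RefSeq on GRCh38.p14, 250 before and 50 after the start site, printed along the strand of its gene, with the motif of that element in capitals, written as GAAA, any 2 bases and GAAA, or as TTTC, any 2 bases and TTTC where it lies on the opposite strand. PARP9 encodes an inactive ADP-ribosyltransferase family member that partners with the ubiquitin ligase DTX3L, and in the windows printed the start sites of the divergent genes lie 38 bases apart. A second PARP9 window, chr3:122564735-122565034, holds no match and is not printed. The PARP9 window printed is chr3:122564251-122564550 on the minus strand and the DTX3L window is chr3:122564088-122564387 on the plus strand, and both hold the same 10 bases at chr3:122564332-122564341. The windows of PARP14 (chr3:122680589-122680888, plus strand), SAMD9 (chr7:93117930-93118229, minus), IFI44 (chr1:78649539-78649838, plus), IFIT1 (chr10:89392373-89392672, plus) and BST2 (chr19:17405581-17405880, minus) also hold a match. SAMD9L (chr7:93148336-93148635, minus), chosen after its values had been seen, is printed as a window without one.
PARP9: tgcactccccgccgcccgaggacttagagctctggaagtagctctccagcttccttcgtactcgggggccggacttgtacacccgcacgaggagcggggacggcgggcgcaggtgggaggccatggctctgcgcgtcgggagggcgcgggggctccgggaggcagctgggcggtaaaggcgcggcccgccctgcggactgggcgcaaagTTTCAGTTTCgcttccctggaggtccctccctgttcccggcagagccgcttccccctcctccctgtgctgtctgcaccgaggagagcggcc
DTX3L: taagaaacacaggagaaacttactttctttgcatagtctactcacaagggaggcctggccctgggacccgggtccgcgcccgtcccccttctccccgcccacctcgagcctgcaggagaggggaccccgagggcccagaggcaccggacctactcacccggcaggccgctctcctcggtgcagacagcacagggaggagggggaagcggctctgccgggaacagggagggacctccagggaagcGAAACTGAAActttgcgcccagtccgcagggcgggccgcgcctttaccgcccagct
PARP14: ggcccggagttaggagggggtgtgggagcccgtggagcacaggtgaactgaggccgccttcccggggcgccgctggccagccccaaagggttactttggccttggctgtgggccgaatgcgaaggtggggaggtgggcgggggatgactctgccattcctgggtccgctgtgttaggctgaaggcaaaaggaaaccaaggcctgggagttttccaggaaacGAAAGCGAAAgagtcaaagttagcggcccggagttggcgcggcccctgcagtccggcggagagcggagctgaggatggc
SAMD9: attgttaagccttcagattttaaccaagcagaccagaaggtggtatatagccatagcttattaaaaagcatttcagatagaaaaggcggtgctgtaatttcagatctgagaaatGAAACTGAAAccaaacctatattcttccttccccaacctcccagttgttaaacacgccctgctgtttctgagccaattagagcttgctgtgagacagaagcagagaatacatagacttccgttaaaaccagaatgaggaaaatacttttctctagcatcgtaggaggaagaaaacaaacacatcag
SAMD9L: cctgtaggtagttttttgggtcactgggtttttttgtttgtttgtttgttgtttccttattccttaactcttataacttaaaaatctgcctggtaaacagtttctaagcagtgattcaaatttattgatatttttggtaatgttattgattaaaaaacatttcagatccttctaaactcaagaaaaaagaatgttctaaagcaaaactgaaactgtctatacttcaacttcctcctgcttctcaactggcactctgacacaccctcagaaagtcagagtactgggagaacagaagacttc
IFI44: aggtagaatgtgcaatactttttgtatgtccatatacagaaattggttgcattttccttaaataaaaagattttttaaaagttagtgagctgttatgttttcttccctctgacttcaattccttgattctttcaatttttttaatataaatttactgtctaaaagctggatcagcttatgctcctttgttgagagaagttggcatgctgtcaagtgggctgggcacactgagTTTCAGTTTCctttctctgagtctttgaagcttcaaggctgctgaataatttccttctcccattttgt
IFIT1: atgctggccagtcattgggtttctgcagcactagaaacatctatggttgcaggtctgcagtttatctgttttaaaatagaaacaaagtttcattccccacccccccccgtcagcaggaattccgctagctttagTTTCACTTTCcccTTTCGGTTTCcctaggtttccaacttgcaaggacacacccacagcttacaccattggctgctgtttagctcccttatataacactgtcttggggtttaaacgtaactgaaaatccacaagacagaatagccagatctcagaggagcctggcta
BST2: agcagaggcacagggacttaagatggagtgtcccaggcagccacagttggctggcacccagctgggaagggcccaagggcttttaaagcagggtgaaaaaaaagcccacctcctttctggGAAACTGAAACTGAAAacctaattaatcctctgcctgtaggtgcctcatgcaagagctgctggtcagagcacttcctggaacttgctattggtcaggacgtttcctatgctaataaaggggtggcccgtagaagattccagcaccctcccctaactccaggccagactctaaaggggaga

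A window was found for 32 of the 38 members, with 43 windows among them. A member was counted if any of its windows held a match, while the shares over RefSeq were counted by window. The shares set side by side here thus differ in unit. The motif, searched on both strands, lay in a window of 22 of these 32 (68.75%), against 3.574% of 35114 RefSeq windows. IFIT1 and BST2 held 2 matches each, starting 116 and 103 bases before the start site in IFIT1 and 130 and 124 bases before it in BST2, where they overlap. In the other windows shown the match started 41 bases before the start site in PARP9, 6 in DTX3L, 29 in PARP14, 136 in SAMD9 and 18 in IFI44. A second IFI44 window, not shown, places its match 60 bases before the start site. A second motif, TTC, any 3 bases and GAA (the interferon gamma activated site), was in a window of 10 of the 32 members (31.25%) and in 7.658% of all windows. Members with a window but no match to the first motif were OAS1, SAMD9L, STAT2, IRF1, IRF9, IFI35, XAF1, HERC6, CMPK2 and UBE2L6. A match is a string of letters and not a measured binding site, and these arrays do not measure binding.

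Expression of the members with LKB1 was compared with each control in each line, on RMA values, which are log2 levels summarised over the probes of a gene. In A549 6 of the 35 members rose and 0 fell against K78I at an adjusted p under 0.05 (IFIT1, IFIT5, SAMD9, SAMD9L, PARP9 and PARP14), where 5.25% of all genes were called in either direction, 3.56% higher and 1.69% lower. Against empty pBABE 5 rose and 0 fell (5.5% of all genes called, 3.78% higher and 1.72% lower), the same members without IFIT5. In H2122 the counts were 1 higher and 0 lower against K78I, SAMD9L alone (3.89% of all genes called, 2.98% higher and 0.908% lower). Against empty pBABE 5 members rose, IFI44, SAMD9, SAMD9L, IFI6 and DDX60, and 2 fell, OAS1 and BST2 (5.77% of all genes called, 4.17% higher and 1.6% lower). SAMD9L was called in all 4 of these comparisons and SAMD9 in 3.

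Most members did not pass. The median difference over the 35 members was 0.25 against K78I and 0.13 against pBABE in A549, beside −0.01 and −0.03 over all genes. In H2122 it was 0.07 against K78I and 0.14 against pBABE, beside −0.02 and −0.05 over all genes. Every LKB1 array of A549 lay above every K78I array for 14 members (11.8% of all genes did so) and above every pBABE array for 10 (13.2%). In H2122 these counts were 12 against K78I (13.3%) and 13 against pBABE (14.2%). Every LKB1 array lay below every K78I array for 2 members in A549 (10.4% of all genes) and 3 in H2122 (17.7%), and below every pBABE array for 2 in A549 (13.8%) and 4 in H2122 (18.5%). The mean level of the members on an array was 5.76 to 5.84 in A549 with LKB1, 5.48 to 5.54 with K78I and 5.59 to 5.64 with pBABE. In H2122 it was 5.89 to 5.95 with LKB1, 5.75 to 5.79 with K78I and 5.71 with pBABE on both arrays, so the LKB1 arrays of each line were the highest. RNA came from whole cultures, so more RNA per cell and more cells with the RNA cannot be told apart. The mean level of 14 of the 35 members lay in the lowest 30% of genes, where signal cannot be told from background without detection calls; among the members called in an LKB1 comparison these are IFIT1, IFIT3, IFI44 and BST2, and among those called between the lines also IFI44L, MX2 and HERC5.

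**Figure D1:**
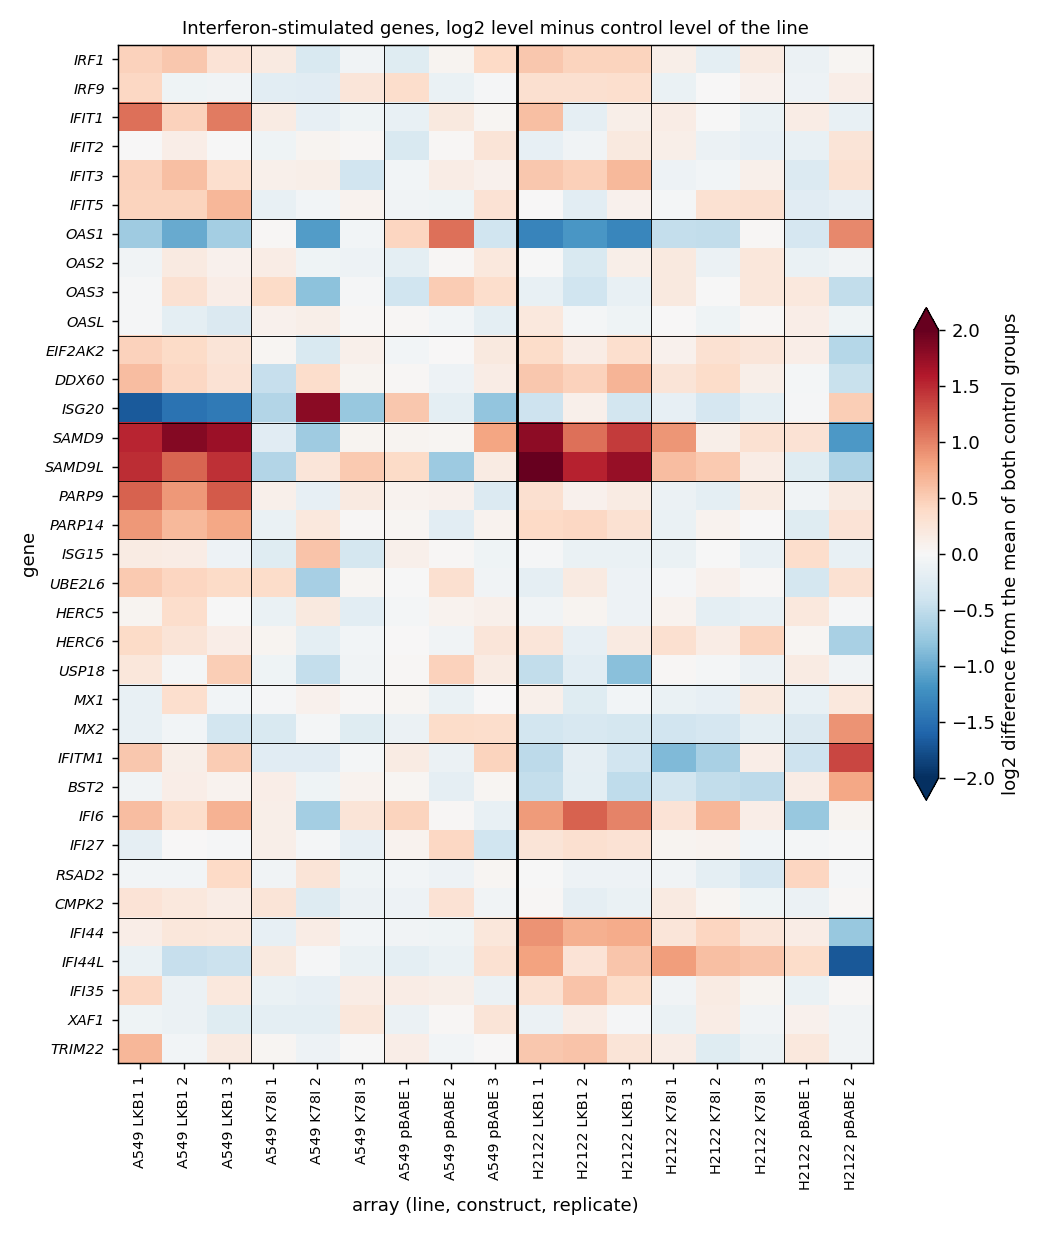
Difference of each array (columns) from the mean of both control groups of its line, in log2 units by colour, for the 35 members (rows, grouped by role); the colour scale stops at 2 in either direction. SAMD9 and SAMD9L are high on the LKB1 arrays of both lines, PARP9 and PARP14 mainly on those of A549, and H2122 pBABE replicate 2 differs from the other H2122 control arrays at IFI44L, SAMD9, IFITM1 and MX2.

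**Figure D2:**
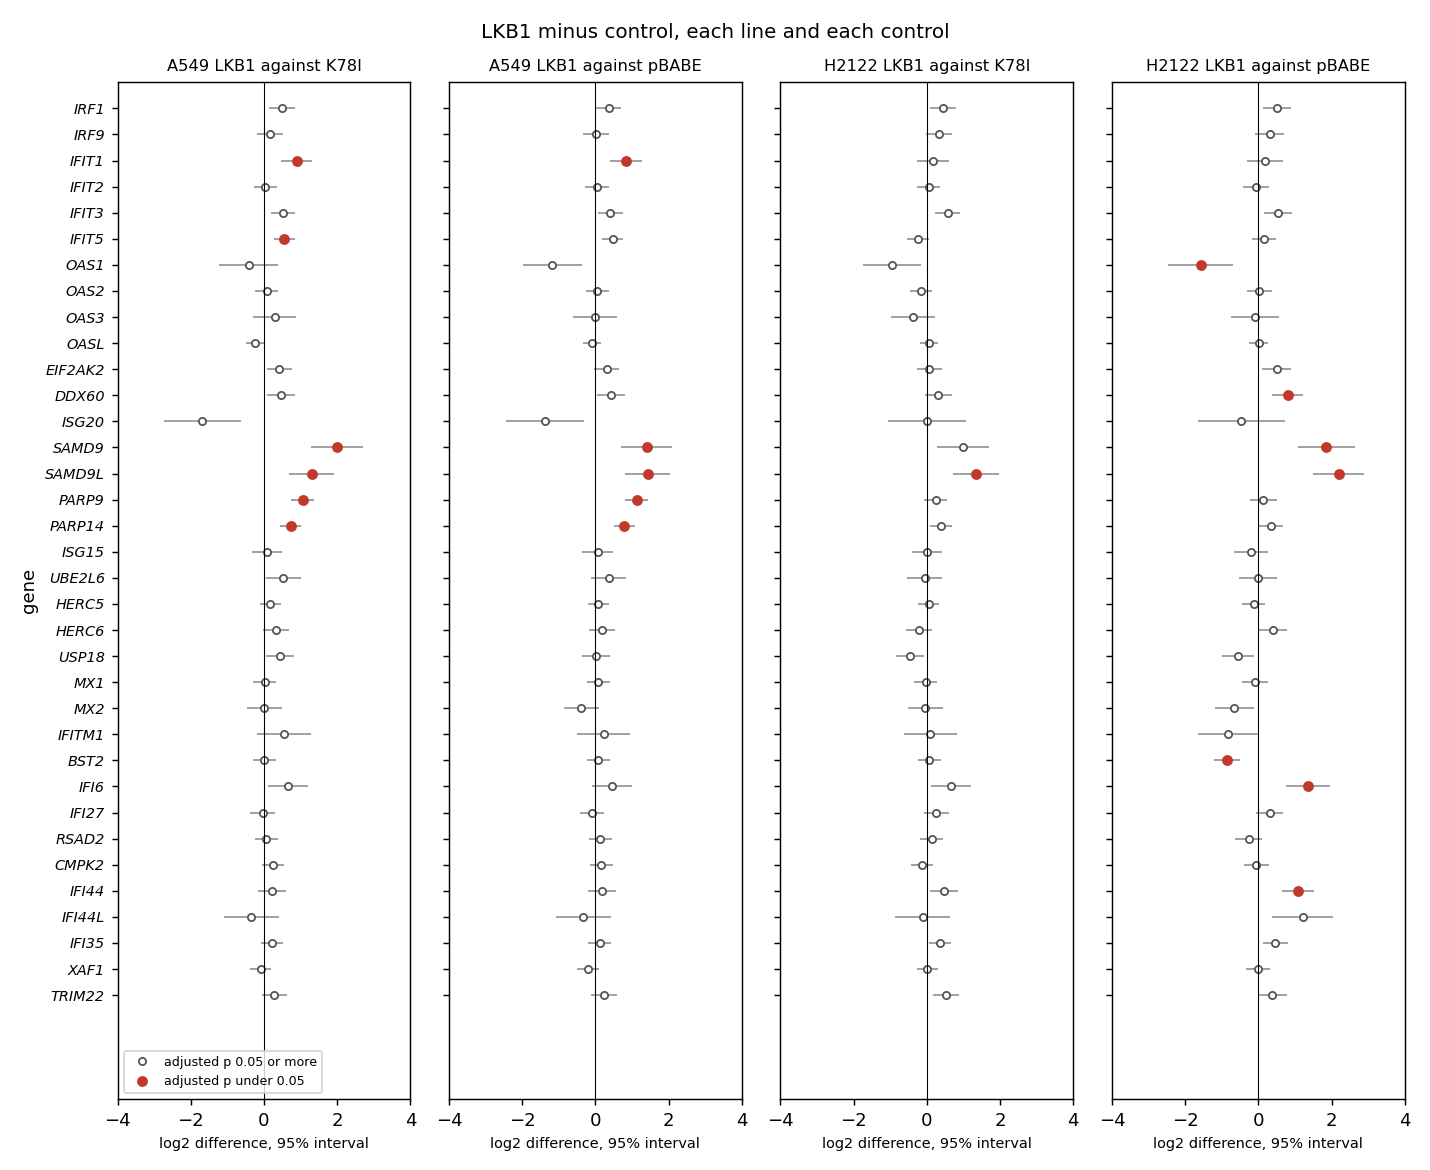
Log2 difference of LKB1 from each control in each line, with its 95% interval, for the 35 members; filled red points passed an adjusted p of 0.05. SAMD9L is filled in all 4 panels, PARP9 and PARP14 in both A549 panels, and most members lie near 0.

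SAMD9 and SAMD9L are neighbours on chromosome 7 and encode related cytosolic proteins that restrict poxviruses and restrain cell growth. SAMD9 was at 7.27, 7.58 and 7.46 in A549 with LKB1, at 5.51, 5.04 and 5.80 with K78I, and at 5.81, 5.78 and 6.53 with pBABE. No LKB1 array overlapped a control array, and the LKB1 mean was 3.97-fold that of K78I (log2 difference 1.99 ± 0.33 SE, adjusted p = 0.00238) and 2.64-fold that of pBABE (1.40 ± 0.33, adjusted p = 0.0207). The call against pBABE was lost without A549 LKB1 replicate 2 or 3 or A549 pBABE replicate 1 or 2, at 1.27 to 1.39 and an adjusted p of 0.0713 to 0.1. In H2122 SAMD9 was at 8.41, 7.73 and 8.03 with LKB1, at 7.52, 6.74 and 6.93 with K78I, and at 6.92 and 5.47 with pBABE. All LKB1 arrays were again the highest. The difference was 0.99 ± 0.33 against K78I, which did not pass (adjusted p = 0.123), and 1.86 ± 0.37 against pBABE (adjusted p = 0.00678). With a block for the replicate number, described below, the K78I difference passed. The pBABE call rested on replicate 2, without which the difference was 1.14 (adjusted p = 0.128). In that fit, as in each below that omits H2122 pBABE replicate 1 or 2, a single H2122 pBABE array is left, and it is assumed to vary like the other groups. Without either pBABE array the K78I difference stayed at 0.99 and passed (adjusted p = 0.0392).

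SAMD9L was at 7.20, 6.90 and 7.20 in A549 with LKB1, at 5.15, 5.98 and 6.25 with K78I, and at 6.12, 5.00 and 5.90 with pBABE. The lowest LKB1 array was above the highest control array. It rose 2.47-fold against K78I (1.31 ± 0.29, adjusted p = 0.016) and 2.69-fold against pBABE (1.43 ± 0.29, adjusted p = 0.00817). The K78I call was lost without LKB1 replicate 1 or 3 (1.25 and 1.26, adjusted p = 0.0621 and 0.0726). In a fit of A549 alone neither call stood (adjusted p = 0.0873 against K78I and 0.0584 against pBABE). In H2122 SAMD9L was at 7.62, 7.12 and 7.32 with LKB1, at 6.21, 6.11 and 5.73 with K78I, and at 5.35 and 4.96 with pBABE. The 3 groups did not overlap, and the K78I arrays stood between the others. The LKB1 mean was 2.53-fold that of K78I (1.34 ± 0.29, adjusted p = 0.0167) and 4.59-fold that of pBABE (2.20 ± 0.32, adjusted p = 0.000832). Without H2122 LKB1 replicate 1 or 3 or K78I replicate 3 the K78I call was lost (1.20 to 1.36, adjusted p = 0.0577 to 0.103), and the pBABE call stood with any 1 array left out.

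Without the 2 A549 arrays at odds with their STK11 label, the A549 difference against the mean of both controls was 1.71 for SAMD9 (adjusted p = 0.00137), against 1.69 with all arrays, and 1.47 for SAMD9L (adjusted p = 0.00352), against 1.37. Without the 3 H2122 arrays whose source name disagrees, the difference against the mean of both controls was 1.62 for SAMD9L (adjusted p = 0.0365) and 1.05 for SAMD9, which no longer passed (adjusted p = 0.124). Of the 7 members called against pBABE in H2122 only IFI6 was then called, and SAMD9L reached 2.02 (adjusted p = 0.0663). Against K78I no member was called. With groups taken from the source names instead, no member was called in H2122 in any LKB1 comparison, and SAMD9L differed from K78I by 0.02 (adjusted p = 0.997). In A549, whose groups are the same under both, the differences of SAMD9 (adjusted p = 0.0664 and 0.208) and SAMD9L (adjusted p = 0.231 and 0.202) against K78I and pBABE then did not pass either. Those groups put an array with STK11 at 6.22 among the LKB1 arrays and one with STK11 at 11.26 among the pBABE arrays. The share of all genes called in the fits of this paragraph is not given here. Their counts thus cannot be read as particular to the members.

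**Figure D3:**
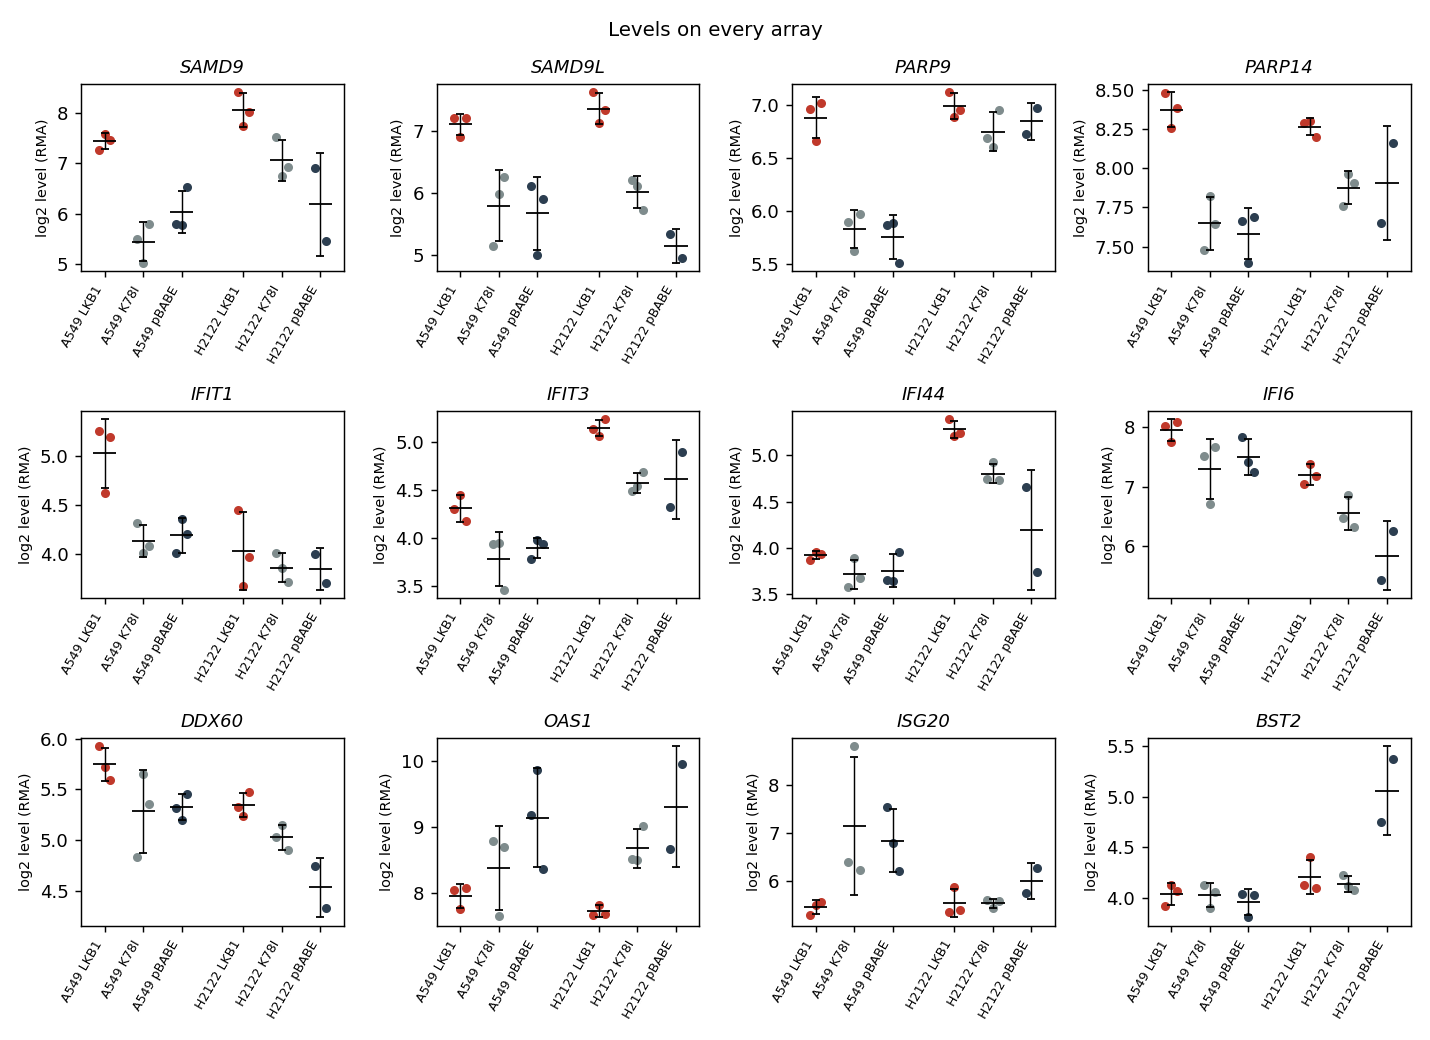
Log2 level on every array for 12 members called in at least 1 LKB1 comparison, by line and construct; bars give the mean and SD of 2 or 3 arrays. The LKB1 points of SAMD9 and SAMD9L lie above all control points of their line, PARP9 and PARP14 separate clearly in A549, and ISG20 is lower with LKB1 in A549 with widely spread controls.

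PARP9 and PARP14 lie close together on chromosome 3 with DTX3L, and encode macrodomain proteins that act in ADP-ribose signalling. PARP9 was at 6.97, 6.66 and 7.02 in A549 with LKB1, at 5.89, 5.62 and 5.97 with K78I, and at 5.87, 5.88 and 5.51 with pBABE. The LKB1 arrays stood well above all 6 control arrays, at 2.08-fold the K78I mean (1.06 ± 0.15, adjusted p = 0.000703) and 2.19-fold the pBABE mean (1.13 ± 0.15, adjusted p = 0.000378). PARP14, an active mono-ADP-ribosyltransferase, was at 8.48, 8.26 and 8.38 with LKB1, at 7.48, 7.82 and 7.64 with K78I, and at 7.66, 7.40 and 7.69 with pBABE. It rose 1.65-fold against K78I (0.73 ± 0.14, adjusted p = 0.00624) and 1.73-fold against pBABE (0.79 ± 0.14, adjusted p = 0.00301). Both genes kept both calls under all 29 alternatives run, leaving out each of the 17 arrays included. In H2122 PARP9 was at 7.13, 6.89 and 6.96 with LKB1, at 6.69, 6.60 and 6.96 with K78I, and at 6.72 and 6.98 with pBABE, and the groups overlapped. PARP14 in H2122 was at 8.29, 8.30 and 8.20 with LKB1, at 7.76, 7.96 and 7.91 with K78I, and at 7.65 and 8.16 with pBABE. Its LKB1 arrays were the highest, by 0.39 ± 0.14 against K78I (adjusted p = 0.154) and 0.36 ± 0.16 against pBABE (adjusted p = 0.24), which did not pass.

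The IFIT genes, clustered on chromosome 10, encode proteins that bind viral RNA. IFIT1, which recognises RNA caps without a particular methyl group, was at 5.26, 4.62 and 5.20 in A549 with LKB1, at 4.32, 4.001 and 4.08 with K78I, and at 4.003, 4.36 and 4.20 with pBABE. The LKB1 arrays did not overlap the controls, although the second was much lower than the others. IFIT1 rose 1.86-fold against K78I (0.90 ± 0.20, adjusted p = 0.0171) and 1.79-fold against pBABE (0.84 ± 0.20, adjusted p = 0.0223). Calls for IFIT1 were lost without LKB1 replicate 1 or 3 in either comparison, without K78I replicate 2 against K78I and without pBABE replicate 1 against pBABE (0.72 to 0.83, adjusted p = 0.0677 to 0.109). Without the 2 arrays at odds with their STK11 label IFIT1 differed from K78I by 0.83 (adjusted p = 0.0744). Without the 3 arrays low in cell cycle genes neither call stood (adjusted p = 0.052 against K78I and 0.0612 against pBABE). In H2122 IFIT1 was at 4.45, 3.66 and 3.96 with LKB1, at 4.003, 3.85 and 3.71 with K78I, and at 3.99 and 3.69 with pBABE, with full overlap.

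IFIT5 was at 6.66, 6.66 and 6.88 in A549 with LKB1, at 6.07, 6.16 and 6.29 with K78I, and at 6.16, 6.13 and 6.51 with pBABE. It rose against K78I (0.56 ± 0.14, adjusted p = 0.0268) and reached 0.47 ± 0.14 against pBABE without passing (adjusted p = 0.0604). The K78I call was lost without any 1 of the 3 LKB1 arrays or without K78I replicate 1 or 2 (0.49 to 0.60, adjusted p = 0.0549 to 0.134). It was also lost with each array centred, in a fit of A549 alone, with groups from source names, without the 3 H2122 arrays whose labels conflict and without the 3 arrays low in cell cycle genes (adjusted p = 0.0549 to 0.0735). IFIT3, a partner of IFIT1, was at 4.30, 4.45 and 4.17 in A549 with LKB1, at 3.94, 3.95 and 3.46 with K78I, and at 3.78, 3.98 and 3.93 with pBABE. In H2122 it was at 5.13, 5.06 and 5.23 with LKB1, at 4.49, 4.54 and 4.68 with K78I, and at 4.32 and 4.90 with pBABE. IFIT3 was thus higher on every LKB1 array than on every control array of its line. It passed only against the mean of both controls, by 0.47 ± 0.14 in A549 (adjusted p = 0.0474) and 0.55 ± 0.14 in H2122 (adjusted p = 0.0263). The A549 call stood in only 4 of the 17 fits that leave out 1 array, with 0.38 to 0.53 and an adjusted p of 0.0588 to 0.188 in the other 13, and was lost with centring, in a fit of A549 alone and with groups from source names (adjusted p = 0.0876 to 0.119). The H2122 call was lost in 6 of 17 such fits, those without any 1 LKB1 array, K78I replicate 1 or 2, or pBABE replicate 1 (0.41 to 0.59, adjusted p = 0.0503 to 0.124). IFIT2, which binds AU-rich RNA, differed by −0.07 to 0.05 over the 4 comparisons.

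The oligoadenylate synthetases OAS1, OAS2 and OAS3 make a second messenger that activates RNase L, and OASL is a relative without that activity. OAS1 went the other way from the members above. It was at 7.67, 7.83 and 7.68 in H2122 with LKB1, at 8.52, 8.50 and 9.02 with K78I, and at 8.66 and 9.95 with pBABE. All LKB1 arrays lay below all controls, and OAS1 was 2.99-fold lower than with pBABE (−1.58 ± 0.42, adjusted p = 0.0382), while −0.95 ± 0.38 against K78I did not pass (adjusted p = 0.21). The pBABE call rested on replicate 2, without which the difference was −0.94 (adjusted p = 0.37), and it was also lost without any 1 of the 3 H2122 LKB1 arrays, without H2122 K78I replicate 1 or 2 and without A549 LKB1 replicate 1 or 3, where the adjusted p was at least 0.0513. With array weights it was −1.61 (adjusted p = 0.0924), and with a block for the replicate number −1.65 (adjusted p = 0.0801). In A549 OAS1 was at 8.04, 7.76 and 8.09 with LKB1, at 8.79, 7.65 and 8.70 with K78I, and at 9.19, 9.86 and 8.37 with pBABE. K78I replicate 2, 1 of the 2 arrays at odds with their STK11 label, was the lowest of all 9. Against pBABE the A549 difference was −1.18 ± 0.38 (adjusted p = 0.0878) with all arrays, and without the 2 arrays OAS1 joined the called members. OAS2, OAS3 and OASL did not pass in any LKB1 comparison, with differences of −0.37 to 0.29.

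Other RNA-directed members are EIF2AK2, the kinase PKR that halts translation on double-stranded RNA, DDX60, a helicase that aids RNA sensing, and ISG20, an exonuclease. DDX60 was at 5.33, 5.24 and 5.47 in H2122 with LKB1, at 5.04, 5.15 and 4.90 with K78I, and at 4.75 and 4.33 with pBABE. The groups did not overlap. DDX60 was 1.75-fold higher with LKB1 than with pBABE (0.81 ± 0.20, adjusted p = 0.0246), a difference that did not pass with a block for the replicate number (adjusted p = 0.0795). Without pBABE replicate 2 this was 0.60 (adjusted p = 0.236), and without LKB1 replicate 1 or 3 the call was lost as well (adjusted p of at least 0.0638), as it was with each array centred (0.75, adjusted p = 0.0555). DDX60 was at 5.92, 5.72 and 5.60 in A549 with LKB1, at 4.84, 5.65 and 5.36 with K78I, and at 5.32, 5.20 and 5.45 with pBABE, and did not pass. ISG20 was at 5.31, 5.51 and 5.57 in A549 with LKB1, at 6.41, 8.80 and 6.24 with K78I, and at 7.53, 6.80 and 6.21 with pBABE. Its LKB1 arrays were the lowest and the controls were widely spread, with K78I replicate 2 far above the rest. The difference was −1.68 ± 0.50 against K78I (adjusted p = 0.067) and −1.38 ± 0.50 against pBABE (adjusted p = 0.138). ISG20 passed against the mean of both controls (−1.53 ± 0.43, adjusted p = 0.0393) and in 7 of the 17 fits that leave out 1 array, but not in a fit of A549 alone (adjusted p = 0.151), with groups from source names (adjusted p = 0.0564) or without the 3 H2122 arrays whose labels conflict (adjusted p = 0.0825). Without the 2 arrays at odds with their STK11 label it was −1.28 (adjusted p = 0.000511). EIF2AK2 differed by 0.42 ± 0.16 from K78I in A549 (adjusted p = 0.157) and by 0.50 ± 0.18 from pBABE in H2122 (adjusted p = 0.141), and did not pass.

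Among the membrane proteins, IFI6 is a small protein of mitochondria and the endoplasmic reticulum that guards against cell death. In H2122 IFI6 was at 7.04, 7.38 and 7.19 with LKB1, at 6.47, 6.85 and 6.32 with K78I, and at 5.43 and 6.25 with pBABE. The groups did not overlap, and IFI6 was 2.57-fold higher with LKB1 than with pBABE (1.36 ± 0.28, adjusted p = 0.00931), with 0.65 ± 0.25 against K78I not passing (adjusted p = 0.198). The pBABE call was lost without pBABE replicate 1 (0.96, adjusted p = 0.082). In A549 IFI6 was at 8.01, 7.74 and 8.09 with LKB1, at 7.51, 6.71 and 7.66 with K78I, and at 7.84, 7.41 and 7.25 with pBABE, a difference of 0.66 ± 0.25 against K78I that did not pass (adjusted p = 0.163). BST2, or tetherin, holds budding virus at the cell surface. BST2 was at 4.13, 4.40 and 4.10 in H2122 with LKB1, at 4.23, 4.11 and 4.08 with K78I, and at 4.75 and 5.37 with pBABE. The pBABE arrays alone stood apart, and BST2 was 1.80-fold lower with LKB1 (−0.85 ± 0.16, adjusted p = 0.00551), or −0.54 without pBABE replicate 2 (adjusted p = 0.101). IFITM1, which blocks virus entry, was at 5.31, 5.65 and 5.46 in H2122 with LKB1, at 4.96, 5.20 and 5.97 with K78I, and at 5.42 and 7.18 with pBABE. Only pBABE replicate 2 was far from the others, and IFITM1 did not pass in any LKB1 comparison. IFI27 differed by −0.10 to 0.31 and did not pass.

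IFI44 and IFI44L are neighbours on chromosome 1 that encode related cytosolic proteins with antiviral activity. In H2122 IFI44 was at 5.39, 5.21 and 5.25 with LKB1, at 4.75, 4.93 and 4.74 with K78I, and at 4.65 and 3.73 with pBABE. All 3 LKB1 arrays were above all controls. IFI44 was 2.13-fold higher than with pBABE (1.09 ± 0.20, adjusted p = 0.00424), while 0.48 ± 0.18 against K78I did not pass (adjusted p = 0.179). The low array was pBABE replicate 2, without which the pBABE difference was 0.63 (adjusted p = 0.0622) and the K78I difference, unchanged at 0.48, passed (adjusted p = 0.0284). In A549 IFI44 was at 3.87, 3.95 and 3.94 with LKB1, at 3.57, 3.88 and 3.68 with K78I, and at 3.65, 3.64 and 3.95 with pBABE, with overlap. IFI44L was at 6.71, 6.17 and 6.47 in H2122 with LKB1, at 6.74, 6.51 and 6.46 with K78I, and at 6.27 and 4.21 with pBABE. The LKB1 and K78I arrays of IFI44L overlapped and only pBABE replicate 2 was low, so that 1.21 ± 0.39 against pBABE did not pass (adjusted p = 0.0932).

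H2122 pBABE replicate 2 was thus the lowest H2122 array for IFI44, IFI44L, SAMD9, SAMD9L and DDX60 and the highest for OAS1, IFITM1, MX2 and BST2. Its cell cycle genes were the lowest of the line, and the part of this in the results was not tested. Counts from fits without this array, given next, lack the share of all genes called and cannot be read as particular to the members. Without it 3 members were called against pBABE, IFIT3, SAMD9L and IFI6. Without all 3 control arrays low in cell cycle genes, 5 were called against pBABE (IFI44, IFIT3, SAMD9L, PARP14 and IFI6) and 6 against K78I (IFI44, IFIT3, SAMD9, SAMD9L, PARP14 and IFI6). In A549 8 were then called against pBABE and 7 against K78I, and SAMD9, SAMD9L, PARP9 and PARP14 were among both.

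The remaining measured members were not called in any LKB1 comparison with all arrays and groups from titles. IRF1 and IRF9 are the measured transcription factors. IRF1 was at 7.82, 7.73 and 7.74 in H2122 with LKB1, at 7.41, 7.10 and 7.47 with K78I, and at 7.17 and 7.33 with pBABE. Its LKB1 arrays did not overlap the controls, but 0.44 ± 0.16 against K78I and 0.51 ± 0.18 against pBABE did not pass (adjusted p = 0.177 and 0.136), nor did 0.49 ± 0.16 against K78I in A549 (adjusted p = 0.104). ISG15, the ubiquitin-like protein, and the enzymes that attach it (UBE2L6, HERC5, and HERC6, a ligase relative) or remove it (USP18) had medians over the 5 genes of 0.32 and 0.08 against K78I and pBABE in A549, and −0.06 and −0.13 in H2122. ISG15 itself differed by −0.19 to 0.08. USP18, whose probes may also read a near-identical copy, differed by −0.47 ± 0.18 against K78I and −0.56 ± 0.20 against pBABE in H2122 (adjusted p = 0.198 and 0.143). The dynamin-like GTPases MX1 and MX2, which trap viral nucleocapsids, lay at −0.65 to 0.07, with the lowest value for MX2 against pBABE in H2122 (adjusted p = 0.171). RSAD2 and CMPK2, neighbours whose enzymes make a chain-terminating nucleotide, lay at −0.27 to 0.25. TRIM22, a ubiquitin ligase, reached 0.53 ± 0.17 against K78I in H2122 (adjusted p = 0.102), IFI35 0.47 ± 0.16 against pBABE in H2122 (adjusted p = 0.115), and XAF1, which antagonises an apoptosis inhibitor, lay at −0.20 to 0.02.

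Against the mean of both control groups, 7 members rose and 1 fell in A549 (8.44% of all genes called, 5.49% higher and 2.95% lower), IFIT1, IFIT3, IFIT5, SAMD9, SAMD9L, PARP9 and PARP14 upward and ISG20 downward. In H2122 6 rose and 1 fell in that line (7.28% of all genes called, 4.99% higher and 2.29% lower), IFI44, IFIT3, SAMD9, SAMD9L, IFI6 and DDX60 upward and OAS1 downward. Every LKB1 array lay above all control arrays of its line for 9 members in A549 (8.46% of all genes) and 12 in H2122 (8.54%), and below them for 1 in A549, ISG20 (6.65%), and 2 in H2122, OAS1 and USP18 (8.82%). IFIT3, SAMD9 and SAMD9L rose in both lines, 3 of the 35 members, as did 1.45% of all genes. This difference had the same sign in both lines for 18 of the 35 members (51.4%), against 60.2% of all genes. Against K78I the signs matched for 22 members (62.9%, against 56% of all genes) and against pBABE also for 22 (62.9%, against 61.2%). The H2122 call of DDX60 (0.56, adjusted p = 0.045) stood in 3 of the 17 fits that leave out 1 array, and that of OAS1 (−1.26, adjusted p = 0.0336) in 12. SAMD9 without H2122 LKB1 replicate 1 (1.25, adjusted p = 0.0562), IFI6 without H2122 LKB1 replicate 2 or 3 (0.92 to 1.02, adjusted p = 0.0529 to 0.0699) and IFIT5 in A549 without LKB1 replicate 3 (0.44, adjusted p = 0.0992) also lost their calls.

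The difference between the lines in the LKB1 effect, A549 minus H2122, was tested for each gene. PARP9 alone among the 35 members passed (3.6% of all genes called, 1.63% higher and 1.98% lower). Its LKB1 effect was 1.09 ± 0.13 in A549 and 0.19 ± 0.13 in H2122, a difference of 0.90 ± 0.19 (adjusted p = 0.0142). The H2122 control arrays of PARP9, at 6.60 to 6.98, stood near the level reached in A549 with LKB1, 6.66 to 7.02. The call was lost without A549 LKB1 replicate 3 (0.83, adjusted p = 0.0572) and without the 3 H2122 arrays whose labels conflict (0.77, adjusted p = 0.136). IFIT1 (0.69 ± 0.25, adjusted p = 0.179), IFIT5 (0.56 ± 0.17, adjusted p = 0.102), IFI44 (−0.60 ± 0.22, adjusted p = 0.199) and USP18 (0.74 ± 0.23, adjusted p = 0.103) did not pass. SAMD9 and SAMD9L differed by 0.27 (95% interval −0.62 to 1.15) and −0.40 (−1.18 to 0.37), and did not pass.

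**Figure D4:**
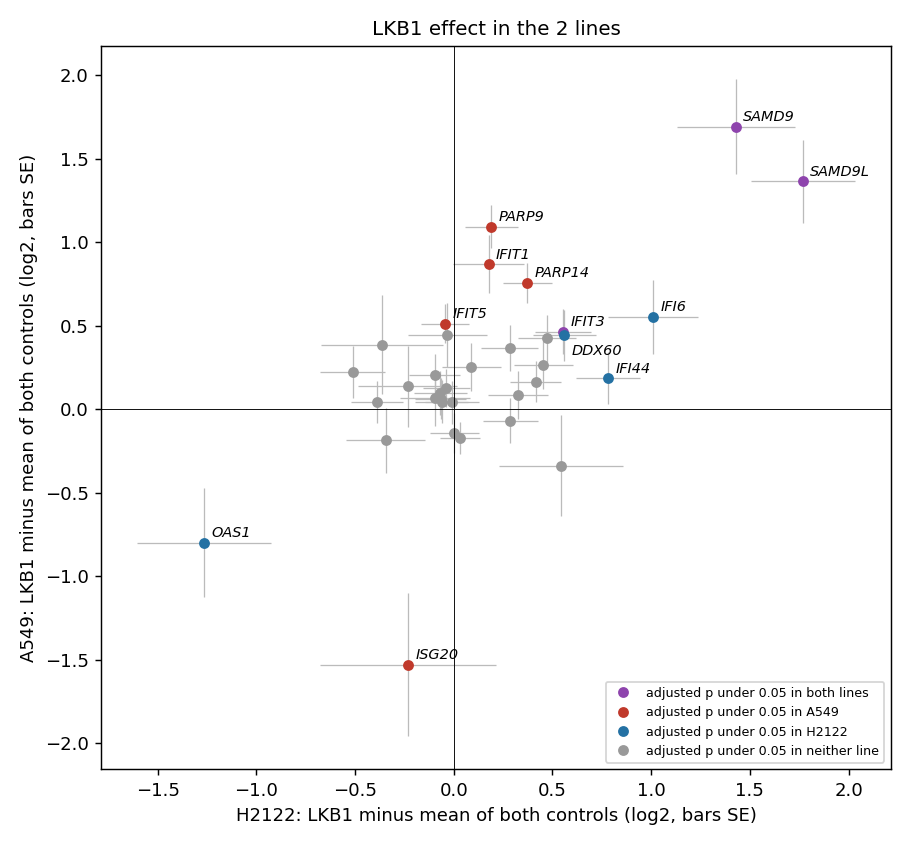
LKB1 minus the mean of both controls in A549 (vertical axis) and H2122 (horizontal axis), in log2 units with SE bars, for the 35 members; colours give the lines in which a member passed. SAMD9 and SAMD9L lie at the upper right in both lines, while PARP9 is high in A549 at 1.09 and near 0 in H2122 at 0.19.

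K78I was compared with empty pBABE to ask what kinase-dead LKB1 does. No member and no gene of the 17958 passed in either line with limma (0% called). That includes STK11 in H2122, at 11.26 to 11.31 with K78I and 6.22 to 6.33 with pBABE. Spread is shared over the groups, and in A549 STK11 had an SD of 1.93 with K78I and 1.97 with pBABE. The fit can thus miss a large difference, and a count of 0 does not show that kinase-dead LKB1 changes nothing. At an unadjusted p under 0.05 there was 1 member in A549, USP18, and 13 in H2122. The share of all genes under that threshold is not given here, nor that in the fits closing this paragraph. These counts thus cannot be read as particular to the members. The H2122 members with the lowest p were BST2 (−0.92 ± 0.16), IFI44L (1.33 ± 0.39), HERC6 (0.61 ± 0.19) and IFI44 (0.61 ± 0.20), each at an adjusted p of 0.167 to 0.566. SAMD9L stood 0.86 ± 0.32 higher with K78I than with pBABE in H2122 (adjusted p = 0.645). Without pBABE replicate 1, where replicate 2 is the only pBABE array left, 8 members were called, and without replicate 2, 0 were.

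Without active LKB1 the lines themselves differed at 18 of the 35 members (51.4%), beside 40.3% of all genes. On the mean of both control groups, 6 members were higher and 12 lower in A549 than in H2122 (40.3% of all genes called, 20.3% higher and 20.1% lower). All A549 control arrays lay above all H2122 control arrays for 1 member, IFI35 (13.3% of all genes), and below them for 8 (13.2%). IFI35, which forms a complex with NMI, was at 8.40 to 8.70 on the 6 A549 control arrays and 6.13 to 6.43 on the 5 of H2122, 2.30 ± 0.11 higher (adjusted p = 1.11e-10). IFI6, ISG20, UBE2L6, DDX60 and HERC5 were also higher, by 0.34 to 1.22. IFI44L was at 3.30 to 3.81 in A549 and 4.21 to 6.74 in H2122, −2.40 ± 0.26 (adjusted p = 2.35e-06). MX1 was at 4.18 to 4.41 in A549 and 5.83 to 6.21 in H2122, −1.68 ± 0.11 (adjusted p = 8.59e-09). The other lower members were IFITM1, PARP9, MX2, SAMD9, IRF1, IFI44, IFIT3, IFIT5, BST2 and PARP14, by −1.56 to −0.28. Calls were lost without H2122 pBABE replicate 1 for SAMD9 (−0.52, adjusted p = 0.0801) and ISG20 (1.08, adjusted p = 0.0657), without H2122 pBABE replicate 2 for HERC5 (0.28, adjusted p = 0.0618), and in 13 of 17 fits for PARP14. DDX60 and HERC5 also lost theirs without the 3 H2122 arrays whose labels conflict (adjusted p = 0.0885 and 0.133) and without the 3 arrays low in cell cycle genes (adjusted p = 0.0695 and 0.0846), ISG20 without the conflicting arrays (adjusted p = 0.0539), and BST2 and DDX60 with groups from source names (adjusted p = 0.255 and 0.253). SAMD9L did not differ detectably (0.15 ± 0.22).

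**Figure D5:**
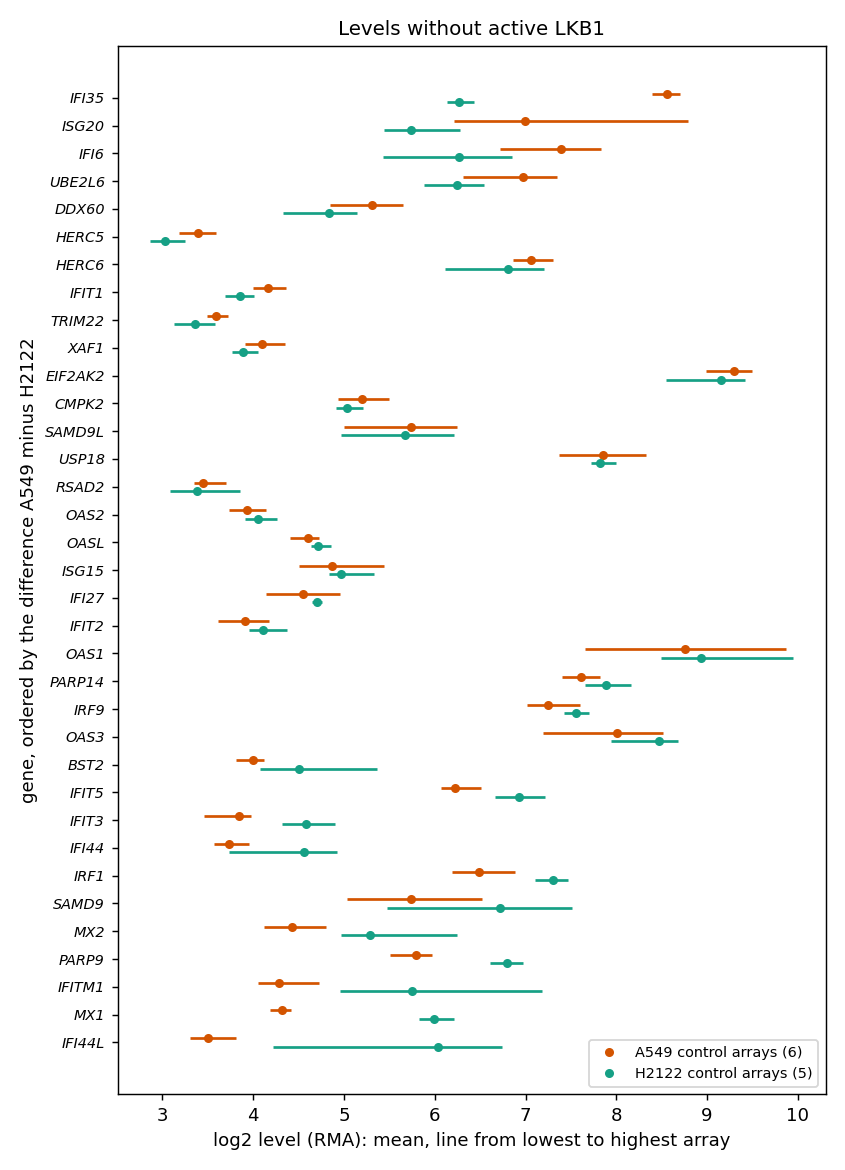
Log2 level of the 35 members on the control arrays of A549 (orange, 6 arrays) and H2122 (green, 5 arrays), as the mean with a line from the lowest to the highest array, in the order of the fitted difference A549 minus H2122. IFI35 is separated with A549 higher, and IFI44L and MX1 with H2122 higher, while most members in the middle overlap.

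The rest of the interferon pathway was read from lists chosen for this purpose, against the mean of both controls, where 5.49% of all genes were called higher and 2.95% lower in A549, and 4.99% higher and 2.29% lower in H2122. Of 14 interferon genes measured, 0 were called in A549 and 1 rose in H2122, IFNE, an epithelial type I interferon (1.48 ± 0.29, adjusted p = 0.00444). The mean level of 12 of the 14, IFNB1 among them, lay in the lowest 30% of genes, where signal cannot be told from background. Of 13 receptor and signalling genes, 1 rose in A549, JAK1 (0.83 ± 0.15, adjusted p = 0.00261), and 2 rose in H2122, the receptor subunit IFNAR2 (0.83 ± 0.15, adjusted p = 0.00266) and JAK1 (0.56 ± 0.16, adjusted p = 0.0422), whose H2122 call stood in 5 of 17 fits that leave out 1 array. Of 11 inhibitors, PTPN2, a phosphatase that acts on JAK1, fell in A549 (−0.57 ± 0.10, adjusted p = 0.00185), SOCS3 rose there (0.50 ± 0.14, adjusted p = 0.0387, standing in 7 of 17 such fits and 6 of 12 other alternatives), and 0 were called in H2122. Of 15 nucleic acid sensors and adaptors, the DNA sensor IFI16 (0.86 ± 0.15, adjusted p = 0.00191) and the RNA sensor RIGI (0.54 ± 0.10, adjusted p = 0.00283) rose in A549 and TLR3 (0.85 ± 0.15, adjusted p = 0.00197) in H2122. Of 42 other interferon-stimulated genes, 7 rose and 1 fell in A549, with a median of 0.15, and 3 rose and 0 fell in H2122, with a median of 0.05. Leaving out 1 array gave 3 to 9 higher in A549, with 3 without A549 LKB1 replicate 3 and 4 without replicate 1, and 3 to 6 higher in H2122, with 6 without H2122 pBABE replicate 2 and 5 without A549 K78I replicate 2 or A549 pBABE replicate 1. SP100, a nuclear body protein, rose in both lines (0.77 ± 0.13 in A549, adjusted p = 0.00151, and 0.71 ± 0.13 in H2122, adjusted p = 0.00395). None of the H2122 calls in these lists stood with groups taken from the source names, and without the 3 H2122 arrays whose labels conflict those of IFNE and TLR3 were lost (adjusted p = 0.0914 and 0.0714). For these fits and those that leave out 1 array, the share of all genes called is not given here. Changes in the counts thus cannot be read as particular to these lists.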

How the data were processed

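RNA of 17 samples, 130 ng each, was hybridised to Affymetrix arrays, 1 array per sample. Per the submitters' processing notes, the authors obtained the log2 levels with Affymetrix Expression Console 1.1 and RMA. RMA makes the array distributions alike, so a shift shared by most genes cannot be seen. Of 33297 probe sets 19181 had 1 symbol in the platform annotation, which gave 17958 genes after keeping the brightest probe set per gene. TRIM22 was the 1 member with a choice of probe sets.

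Groups came from titles. Differences were fitted in R 4.3.3 with limma 3.58.1, the 6 groups sharing 1 estimate of spread per gene (11 residual degrees of freedom) and Benjamini-Hochberg adjustment over all 17958 genes at 0.05. The mean of both controls weights K78I and pBABE equally. SE and 95% intervals come from that fit, which was checked on simulated data. The number of arrays limits the precision. The members, gene lists and tests were chosen with earlier results of these data known. Values on every array are given for members called in any LKB1 comparison and for some others, and promoter windows for 6 called members with a motif match, in order of lowest adjusted p, and for DTX3L; SAMD9L was added after its values were seen. Alternatives were a replicate block, groups from source names, omitting the conflicting arrays together or single arrays one by one, dropping genes in the lowest 30% of levels, centring, quantile normalization, array weights, averaging a gene's probe sets, separate fits by line and a prior with trend. Leaving out the arrays at odds with STK11 or low in cell cycle genes was added after seeing the data.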

Additional observations from a re-analysis of the deposited data

Results flagged for a closer look

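PARP9 differed between the lines in its response to LKB1 by 0.90 on the log2 scale, A549 minus H2122 (adjusted p = 0.0142), by a test of the difference itself. The level was higher on 3 of 3 LKB1 arrays than on all control arrays in A549, and the groups overlapped in H2122. PARP9 was the only 1 of 35 members to pass (2.86%), beside 3.6% of all genes. Its call was lost without A549 LKB1 replicate 3, and without the 3 H2122 arrays whose labels conflict (0.77, adjusted p = 0.136).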

How the results depend on the processing

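The share of all genes called under each alternative is not given here, nor for the fits that leave out 1 array or use the replicate block. Changes in the counts thus cannot be read as particular to the members. Counts of called members that moved by over 1.5 times were as follows. With groups from source names they were 3 against K78I, 3 against pBABE and 5 against the mean of both controls in A549, and 0 in each H2122 comparison. Without the 3 H2122 arrays whose labels conflict they were 0 against K78I, 1 against pBABE and 1 against the mean in H2122, and 0 for the difference between lines. Array weights gave 11 against pBABE and 13 against the mean in A549, 12 against K78I in H2122 and 7 for the difference between lines. Leaving out the 2 A549 arrays at odds with STK11 gave 9 against pBABE in A549 and 3 for the difference between lines. Leaving out the 3 arrays low in cell cycle genes gave 8 against pBABE in A549 and 6 against K78I in H2122. Among the 42 other interferon-stimulated genes, array weights gave 16 higher and 4 lower in A549 and 7 higher and 1 lower in H2122, and leaving out the arrays low in cell cycle genes gave 10 higher and 1 lower in H2122.

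Leaving out each array in turn gave 3 to 9 members against K78I, 3 to 7 against pBABE and 5 to 9 against the mean in A549. In H2122 it gave 0 to 4, 3 to 11 and 3 to 11. The range was 0 to 5 for the difference between lines, 0 to 8 for K78I against pBABE and 17 to 20 for A549 against H2122.

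Of 146 differences of named genes recomputed under the alternatives, 8 turned sign, all in H2122 with groups from source names: IFI44 (−0.19) and SAMD9 (−0.22) against K78I, BST2 (0.22), RIGI (−0.046) and IFITM2 (0.15) against pBABE, and IFI44 (−0.056), DDX60 (−0.055) and PECAM1 (0.069) against the mean. The cause was not tested.

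Same-numbered arrays correlated in their deviations at −0.644 to 0.352 in A549 and 0.0639 to 0.42 in H2122, above 0.1 in 6 of 7 H2122 pairs but 4 of 9 A549 pairs, and 6 of 8 arrays in H2122 and 3 of 9 in A549 were closest to one with their own number. Differently numbered arrays of different groups correlated at −0.42 to 0.127 in H2122, above 0.1 in 1 of 14 pairs. In A549 these lay at −0.519 to 0.638, above 0.1 in 6 of 18 pairs. Since not every same-numbered pair was above 0.1, the numbers were not taken to pair the arrays. Whether same-numbered H2122 arrays share a batch was not tested, and the main fit holds no term for it. With the replicate block the counts were 6, 6 and 7 in A549, 2, 5 and 6 in H2122, 1 for the difference between lines, 0 for K78I against pBABE and 14 for the lines' levels. Under the block SAMD9 passed against K78I in H2122 (adjusted p = 0.0211), and OAS1 and DDX60 did not pass there against pBABE (adjusted p = 0.0801 and 0.0795).

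Centring each array on its median put the share of higher among all calls against the mean at 51.9% in A549, beside 65%, and turned the members' median in H2122 to −0.01, against 0.03. It moved that share to 55.5% against K78I in A549, beside 67.8%, and to 57.5% against pBABE in H2122, beside 72.2%. No scaling moved the median of all genes by over 0.1.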

Other observations

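Of 13 antigen presentation genes, many of them interferon-induced, 9 rose in H2122 with LKB1 against the mean of both controls, and 0 fell, beside 4.99% of all genes higher and 2.29% lower, with a median difference of 0.72. They included the peptide transporter TAP1 (0.72 ± 0.10, adjusted p = 0.000308), the peptide-trimming enzyme ERAP2 (1.11 ± 0.17, adjusted p = 0.000731) and B2M, the light chain of class I molecules (0.82 ± 0.15, adjusted p = 0.00302). In A549 1 of the 13 rose, ERAP2 (0.86 ± 0.16, adjusted p = 0.00323), beside 5.49% of all genes higher, and the median was 0.16. Leaving out 1 array gave 6 to 9 in H2122 and 1 to 2 in A549, with 2 without A549 K78I replicate 1 or 3 or either H2122 pBABE array, and with groups from source names the A549 call of ERAP2 was lost (adjusted p = 0.106). With groups from source names 0 of the 13 were called in H2122, and without the 3 H2122 arrays whose labels conflict 5 were. The share of all genes called in these alternative fits is not given here, so changes in the counts cannot be read as particular to these 13 genes. TAP1 passed the test of the difference between lines (−0.62 ± 0.13, A549 minus H2122, adjusted p = 0.0182), but not without A549 LKB1 replicate 3 or H2122 LKB1 replicate 2 or 3 (−0.60 to −0.56, adjusted p = 0.0525 to 0.0725).

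Of the 42 other interferon-stimulated genes, 5 passed that test (3.6% of all genes did), and 2 to 6 with 1 array left out, 2 without A549 LKB1 replicate 3 or H2122 LKB1 replicate 1 and 3 without A549 LKB1 replicate 1 or H2122 LKB1 replicate 2. Without the 3 H2122 arrays whose labels conflict 2 passed, and LGALS3BP (adjusted p = 0.0688) and APOL1 (adjusted p = 0.0806) did not. For the fits with arrays left out the share of all genes is not given here. LGALS3BP, a secreted glycoprotein, rose in A549 (1.73 ± 0.20, adjusted p = 7.79e-05) and differed between lines by 1.68 ± 0.29 (adjusted p = 0.00442), and APOL1 differed by 1.53 ± 0.35 (adjusted p = 0.0252). The APOL1 call was lost without A549 LKB1 replicate 1 or 3 or H2122 LKB1 replicate 1 or 2 (1.41 to 1.52, adjusted p = 0.0675 to 0.0908). PML, which organises nuclear bodies, rose in H2122 (1.14 ± 0.11, adjusted p = 2.5e-05) and differed by −0.89 ± 0.16 (adjusted p = 0.00529). SLFN5 differed by −1.16 ± 0.24 (adjusted p = 0.0152), lost without A549 LKB1 replicate 3 or H2122 LKB1 replicate 1 (adjusted p = 0.0548 to 0.0581). IFITM2 differed by 1.94 ± 0.50 (adjusted p = 0.0442), a call that stood in 4 of the 17 fits that leave out 1 array.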
